A study of Mus musculus with 6 samples.

Results

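The genes described here are 10 genes of the interferon gamma response of the mouse: the cytokine gene Ifng, the chemokine genes Cxcl9 and Cxcl10, their receptor gene Cxcr3, the guanylate binding protein genes Gbp2, Gbp3 and Gbp6, and the immunity-related GTPase genes Irgm1, Igtp and Iigp1. They were taken as the probes whose RefSeq accession maps to one of these symbols, and all 10 were found among 19752 named genes, through 14 probes. Cxcl9, Gbp6, Irgm1 and Iigp1 have 2 probes each. All 14 probes were well above background on all 6 arrays.

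Total RNA of whole lung from C57BL/6 mice was measured on 6 Agilent arrays of 1 colour, 1 array for each of 6 groups. The groups are mice labelled FcRg KO (FcRg-/-), mice labelled FceRIa KO (FceRIa-/-) and wild type (WT) mice, each given HRF or PBS by the nose. HRF is mouse histamine-releasing factor, a secreted protein that can bind immunoglobulin E, and the sample descriptions name it mHRF-His. The labels give no dose, time, age or sex, do not say whether an array holds 1 mouse or a pool, and do not describe how the alleles were made.

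Interferon gamma is released mainly by natural killer (NK) cells and T cells. It binds a receptor made of Ifngr1 and Ifngr2 on most cells of the lung, activates the kinases Jak1 and Jak2, and turns on genes through a DNA element called GAS. One of these genes encodes Irf1, which acts with other factors on a second element, the ISRE, and so widens the response. Cxcl9 and Cxcl10 are secreted chemokines that attract T cells and NK cells carrying the receptor Cxcr3. The guanylate binding proteins and immunity-related GTPases act inside cells, where they attack the vacuoles that hold intracellular bacteria and parasites.

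Each level below is the log2 of the processed signal minus the log2 of that array's 75th percentile, so that 0 marks the 75th percentile of the array. Each ratio is a difference of such levels between arrays. The arrays held 59305 spots other than controls, of which 67.5% to 79.6% were well above background, and none was saturated. There are no replicates: a ratio within a genotype has no test, called means at least 2-fold, and precision is limited by having 6 arrays. In whole lung, fewer cells of a type and less RNA per cell cannot be told apart.

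Neither targeted gene was lower than in WT on both the HRF and the PBS array labelled as its knockout. Fcer1g, which encodes the FcRg chain, stood at 4.32 and 4.14 on the HRF and PBS arrays labelled FcRg KO, against 4.61 and 3.93 on the WT arrays. Fcer1a, which encodes the FceRIa chain, stood at -1.16 and -0.90 on the HRF and PBS arrays labelled FceRIa KO, and was lower on the WT arrays at -4.19 and -4.48. Whether these probes lie in a deleted part of either gene is not given in the sources used here. The knockout groups are for this reason called by their labels.

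Both arrays labelled FcRg KO also stood apart in B cell markers. All 5 of these were at least 2-fold lower than in WT on the HRF arrays and on the PBS arrays, with a mean level of -4.87 and -4.84 on the HRF and PBS arrays of that label. The mean level was 0.44 and 0.12 under the FceRIa KO label and 0.34 and 0.20 in WT. The defining markers Ms4a1 and Pax5 were not well above background on either array labelled FcRg KO. Cd79b, a chain of the B cell receptor, averaged 8.63-fold lower there than in WT (log2 -3.11, SE 0.13, limma adjusted p = 0.0379). The part of this difference in the results below was not tested. Lung epithelium markers were well above background on all 6 arrays (8 of 8), with mean levels of 6.08 to 6.42.

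Promoters of 8 of the 10 genes were matched by symbol in RefSeq (build GRCm38.p6), each running from 250 bases before the start site to 50 after it. The letters TTCNNNGAA (GAS) and GAAANNGAA (the core of the ISRE) were searched on both strands. The ISRE core was found in 6 of the 8 genes, Cxcl9, Cxcl10, Gbp2, Gbp3, Irgm1 and Igtp, against 8.56% of 32851 promoters of the same length. These shares count windows rather than genes. The 8 genes have 9 windows, since Gbp3 has a second start site, whose window holds no match. GAS was found in Ifng and Igtp, against 8.30% of those promoters, and both motifs in Igtp, against 1.07%. Neither was found in the window of Cxcr3. A match describes letters and is not shown to be a site. The promoters of Ifng, both chemokine genes, Gbp2, Irgm1 and Igtp are printed to show the matches, and these genes had WT ratios of 1.89-fold or more. That of Gbp3, which also holds matches but had a ratio of 1.202-fold, is not. They run 5′ to 3′ on the strand of the gene, with the matches in capitals. Ifng lies at chr10:118440796-118441095 on the plus strand, Cxcl9 at chr5:92328030-92328329 on the minus strand, Cxcl10 at chr5:92348840-92349139 on the minus strand, Gbp2 at chr3:142620413-142620712 on the plus strand, Irgm1 at chr11:48871371-48871670 on the minus strand and Igtp at chr11:58199306-58199605 on the plus strand.
Ifng: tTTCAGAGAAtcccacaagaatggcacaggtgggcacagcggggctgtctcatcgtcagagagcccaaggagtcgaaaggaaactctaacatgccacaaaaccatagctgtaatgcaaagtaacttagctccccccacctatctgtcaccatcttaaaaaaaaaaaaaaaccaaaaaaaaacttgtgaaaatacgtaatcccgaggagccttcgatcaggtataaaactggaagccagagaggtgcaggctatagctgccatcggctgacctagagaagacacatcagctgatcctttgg
Cxcl9: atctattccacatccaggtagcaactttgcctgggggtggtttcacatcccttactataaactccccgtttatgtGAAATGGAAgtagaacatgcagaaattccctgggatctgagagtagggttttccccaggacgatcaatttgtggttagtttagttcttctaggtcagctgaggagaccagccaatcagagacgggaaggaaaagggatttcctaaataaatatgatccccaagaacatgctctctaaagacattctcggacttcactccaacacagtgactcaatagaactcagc
Cxcl10: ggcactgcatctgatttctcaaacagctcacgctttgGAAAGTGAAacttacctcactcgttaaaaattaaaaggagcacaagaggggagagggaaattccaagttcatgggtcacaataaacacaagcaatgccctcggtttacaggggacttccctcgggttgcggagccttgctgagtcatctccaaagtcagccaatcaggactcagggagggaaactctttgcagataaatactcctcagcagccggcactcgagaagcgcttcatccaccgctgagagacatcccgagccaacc
Gbp2: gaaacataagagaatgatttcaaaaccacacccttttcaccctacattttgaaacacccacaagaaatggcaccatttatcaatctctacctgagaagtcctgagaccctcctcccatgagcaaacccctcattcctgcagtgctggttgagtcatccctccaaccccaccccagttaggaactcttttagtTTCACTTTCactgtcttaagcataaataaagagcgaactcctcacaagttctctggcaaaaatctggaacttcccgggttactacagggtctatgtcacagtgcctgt
Irgm1: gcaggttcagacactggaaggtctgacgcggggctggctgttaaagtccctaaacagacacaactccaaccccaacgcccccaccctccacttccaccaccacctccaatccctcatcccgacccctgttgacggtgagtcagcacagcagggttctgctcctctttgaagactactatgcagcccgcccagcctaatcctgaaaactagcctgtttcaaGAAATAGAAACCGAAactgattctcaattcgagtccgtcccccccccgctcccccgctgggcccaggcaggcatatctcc
Igtp: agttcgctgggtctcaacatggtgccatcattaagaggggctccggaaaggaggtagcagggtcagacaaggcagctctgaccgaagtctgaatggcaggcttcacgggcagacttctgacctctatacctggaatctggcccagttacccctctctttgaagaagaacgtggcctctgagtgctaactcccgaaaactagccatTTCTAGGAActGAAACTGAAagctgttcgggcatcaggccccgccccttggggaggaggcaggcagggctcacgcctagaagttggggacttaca
The GAS letters of Ifng begin 249 bases before the start site. The ISRE core begins 175 bases before it in Cxcl9 and 213 bases before it in Cxcl10. It begins 58 bases before it in Gbp2. Irgm1 holds overlapping matches that begin 30 and 24 bases before the start. Igtp has the GAS letters 45 and the ISRE core 34 bases before the start, so the GTPase genes printed have their matches nearer the start site than Ifng and the chemokine genes do.

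Ifng, the cytokine gene itself, was high on 1 array only. Its level was -3.03 on the HRF and -3.11 on the PBS array labelled FcRg KO. It was -3.32 and -3.15 on the HRF and PBS arrays labelled FceRIa KO. In WT it was -0.04 with HRF and -2.62 with PBS. The WT HRF array thus stood apart from the other 5, which lie between -3.32 and -2.62. The HRF over PBS ratio was 5.99-fold in WT, rank 58 from the top of 17435 genes, while the log2 ratios under the FcRg KO and FceRIa KO labels were 0.08 and -0.16. The 2 spots of the Ifng probe differed with an SD of 0.02 to 0.12 within an array, which measures spot error only.

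**Figure D1:**
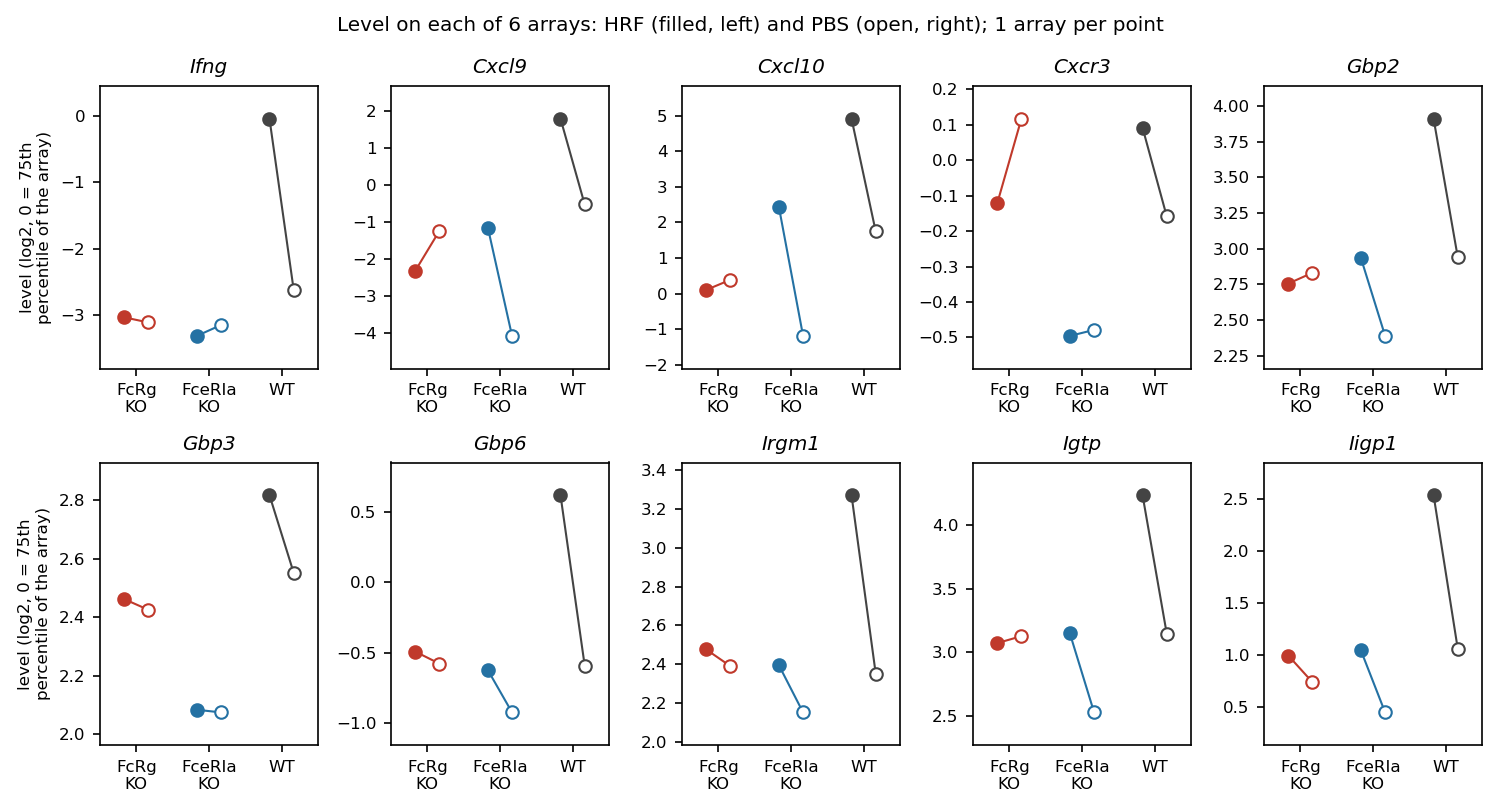
Level of each of the 10 genes on the 6 arrays (vertical axis, log2 relative to the array's 75th percentile, with a scale of its own in each panel), by genotype label. Filled points are HRF arrays and open points PBS arrays, 1 array per point, and a line joins the arrays of 1 label. The WT HRF array was the highest for 9 of the 10 genes.

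The chemokine genes differed from Ifng in that they were also higher with HRF under the FceRIa KO label. Cxcl10 stood at 0.10 with HRF and 0.39 with PBS under the FcRg KO label. Under the FceRIa KO label it stood at 2.44 with HRF and -1.19 with PBS, and in WT at 4.92 and 1.74. The ratios were 12.4-fold under the FceRIa KO label and 9.02-fold in WT, rank 31 in both comparisons (of 16314 and 17435 genes). Under the FcRg KO label the log2 ratio was -0.28.

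Cxcl9 followed the same order of labels. Its level was -2.32 with HRF and -1.24 with PBS under the FcRg KO label. It was -1.15 and -4.08 under the FceRIa KO label and 1.81 and -0.52 in WT. The ratio was 7.65-fold under the FceRIa KO label (rank 48) and 5.02-fold in WT (rank 75). Under the FcRg KO label Cxcl9 was 2.12-fold lower with HRF, a call that was lost under another setting: its log2 ratio of -1.08 became -0.97 with the mean of both probes and -0.92 with another background correction. Its second probe gave log2 ratios of -0.86, 2.46 and 2.38 for FcRg KO, FceRIa KO and WT.

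The large ratios under the FceRIa KO label set the HRF array against the PBS array that was the lowest of the 6 for both chemokine genes. On PBS arrays Cxcl9 was 11.8-fold lower and Cxcl10 7.65-fold lower under the FceRIa KO label than in WT. On HRF arrays they were 7.73-fold and 5.58-fold lower. Cxcl9 on the HRF array labelled FceRIa KO (-1.15) stayed below the WT PBS array (-0.52) and close to the FcRg KO PBS array (-1.24). Its ratio there thus reached a level that PBS arrays of the other labels also had. Cxcl10 on that HRF array (2.44) lay above WT PBS (1.74) and FcRg KO PBS (0.39).

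Cxcr3, the receptor of both chemokines and a surface marker of activated T cells and NK cells, varied little. Its level was -0.12 and 0.12 on the HRF and PBS arrays labelled FcRg KO. It was -0.50 and -0.48 under the FceRIa KO label, and 0.09 and -0.16 in WT. The log2 ratios were -0.24, -0.02 and 0.25 for FcRg KO, FceRIa KO and WT, and none of them is 2-fold. Cxcr3 is the 1 gene of the 10 whose highest array was not WT HRF.

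Marker lists of cells that make interferon gamma did not all move with it. NK cell markers had mean levels of -0.43 and -0.80 on the HRF and PBS arrays labelled FcRg KO, -1.16 and -0.78 under the FceRIa KO label, and -0.26 and -0.61 in WT. Of the 8, 1 was at least 2-fold higher with HRF in WT: Gzmb, a protease of cytotoxic granules, at a log2 ratio of 1.64. Of 10 T cell markers measured, 0 were at least 2-fold higher with HRF under any label. Their median log2 ratios were -0.17, 0.26 and 0.53 for FcRg KO, FceRIa KO and WT. These medians rose in the same order of labels as those of the 10 genes. On PBS arrays the T cell markers differed from WT by a median of 0.74 under the FcRg KO label and -0.07 under the FceRIa KO label. On HRF arrays these medians were 0.10 and -0.42. Neutrophil markers had mean levels of 1.10 and 1.13 with HRF and PBS under the FcRg KO label, 1.505 and 1.405 under the FceRIa KO label, and 1.78 and 0.25 in WT, and 4 of 7 were at least 2-fold higher with HRF in WT. Monocyte and macrophage markers averaged 1.39 and 1.38, 1.32 and 1.11, and 1.86 and 1.16 with HRF and PBS for FcRg KO, FceRIa KO and WT, with 2 of 6 at least 2-fold higher with HRF in WT. Dendritic cell markers averaged -0.33 and -0.56, -0.34 and -0.52, and 0.15 and -0.57 with HRF and PBS for FcRg KO, FceRIa KO and WT. Of 6, 1 was at least 2-fold higher with HRF in WT, Batf3, a transcription factor gene, at a log2 ratio of 2.41, and their median there was 0.50. The part of these cell markers in the results was not tested.

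The 3 guanylate binding protein genes were higher with HRF in WT by differing amounts. Gbp2, which reaches the vacuole of Toxoplasma in mice, stood at 2.76 and 2.83 on the HRF and PBS arrays labelled FcRg KO. It stood at 2.93 and 2.39 under the FceRIa KO label and at 3.91 and 2.94 in WT. Its ratio in WT was 1.96-fold, just under 2-fold. Gbp6 stood at -0.49 and -0.58 under the FcRg KO label, at -0.62 and -0.92 under the FceRIa KO label, and at 0.62 and -0.59 in WT. Its ratio in WT was 2.32-fold, and its second probe gave a log2 ratio of 1.48 beside 1.21. Gbp3 stood at 2.46 and 2.43, at 2.08 and 2.07, and at 2.82 and 2.55 on the HRF and PBS arrays labelled FcRg KO, FceRIa KO and WT. Its log2 ratios of 0.04, 0.01 and 0.27 were the smallest of the GTPase genes in WT and under the FceRIa KO label. Whether the probes of this family also bind its closely related members was not tested.

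The 3 immunity-related GTPase genes were also higher with HRF in WT, at log2 ratios of 0.92 to 1.48 with the probes used. Irgm1, a regulator of the other members of its family, stood at 2.48 and 2.39 on the HRF and PBS arrays labelled FcRg KO. It stood at 2.40 and 2.15 under the FceRIa KO label and at 3.27 and 2.35 in WT. Its ratio in WT was 1.89-fold, or 0.51 on the log2 scale with its second probe beside 0.92 with the first.

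Igtp, also called Irgm3, was printed on each array in 10 spots, of which 9 were kept on WT HRF. It stood at 3.07 and 3.13 on the HRF and PBS arrays labelled FcRg KO, at 3.15 and 2.53 on those labelled FceRIa KO, and at 4.23 and 3.14 in WT. The SD between its spots was 0.04 to 0.12 on each array, so the 2.13-fold difference in WT and the 1.54-fold difference under the FceRIa KO label are larger than the spot error. The difference under the FcRg KO label (log2 -0.05) is within it. Spot error does not measure the spread between mice.

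Iigp1, an effector GTPase that coats the vacuoles of Toxoplasma in mouse cells, stood at 0.995 and 0.74 on the HRF and PBS arrays labelled FcRg KO. It stood at 1.04 and 0.45 under the FceRIa KO label and at 2.54 and 1.06 in WT. Its ratio in WT, 2.79-fold, was the largest of the 6 GTPase genes, and its second probe gave a log2 ratio of 1.64 beside 1.48. For the 4 genes with 2 probes, the probes' ratios differed by at most 0.48 on the log2 scale.

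**Figure D2:**
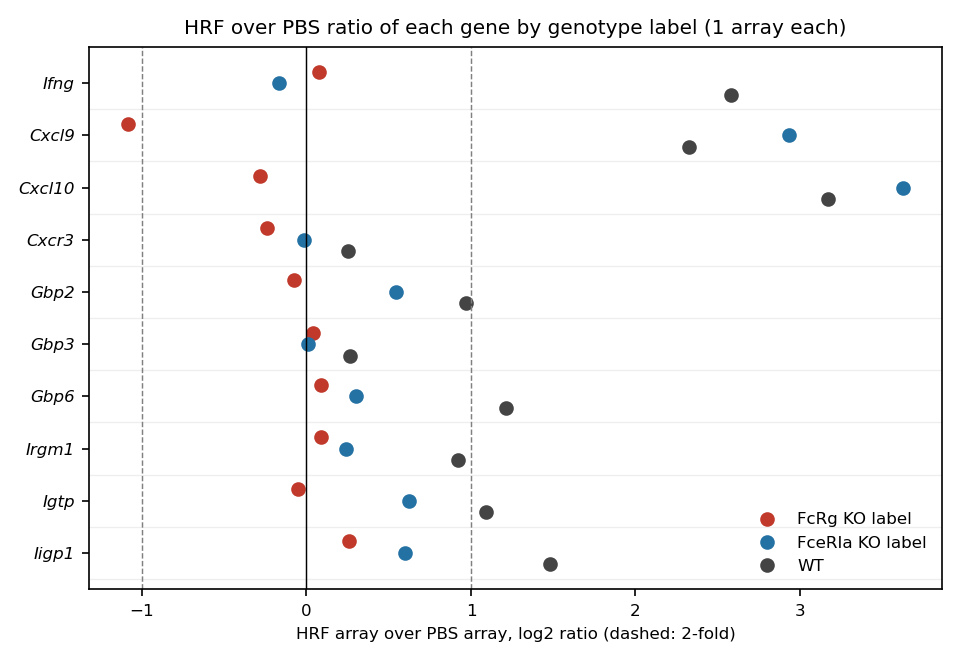
HRF over PBS log2 ratio of each of the 10 genes (horizontal axis) under the FcRg KO label, the FceRIa KO label and in WT, 1 pair of arrays per point. Dashed lines mark 2-fold. Cxcl9 and Cxcl10 were more than 2-fold higher with HRF under the FceRIa KO label and in WT, and Ifng, Gbp6, Igtp and Iigp1 in WT alone. Cxcl9 was more than 2-fold lower with HRF under the FcRg KO label.

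Counted together, 0 of the 10 genes were at least 2-fold higher with HRF under the FcRg KO label, against 0.753% of all genes compared. Under the FceRIa KO label 2 of 10 were, Cxcl9 and Cxcl10, against 1.48% of all genes. In WT 6 of 10 were, Ifng, Cxcl9, Cxcl10, Gbp6, Igtp and Iigp1, against 2.33%. In the other direction Cxcl9 alone was at least 2-fold lower with HRF under the FcRg KO label (1 of 10, against 1.18%). The median log2 ratio of the 10 genes was -0.01 under the FcRg KO label, 0.42 under the FceRIa KO label and 1.15 in WT. Over all genes compared it was 0.00, -0.01 and -0.05. The 6 GTPase genes had medians of 0.06, 0.42 and 1.03 for FcRg KO, FceRIa KO and WT, and the largest of their ratios under the FcRg KO label was 0.26. Gbp2 and Irgm1, with the probes used, lie just under 2-fold in WT, so that 8 of 10 were counted when arrays were scaled on the median, which moved all WT ratios up by 0.22. Igtp lies just above it at 1.09. It fell just under 2-fold with another background correction and quantile normalization, where 5 of 10 were counted.

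**Figure D3:**
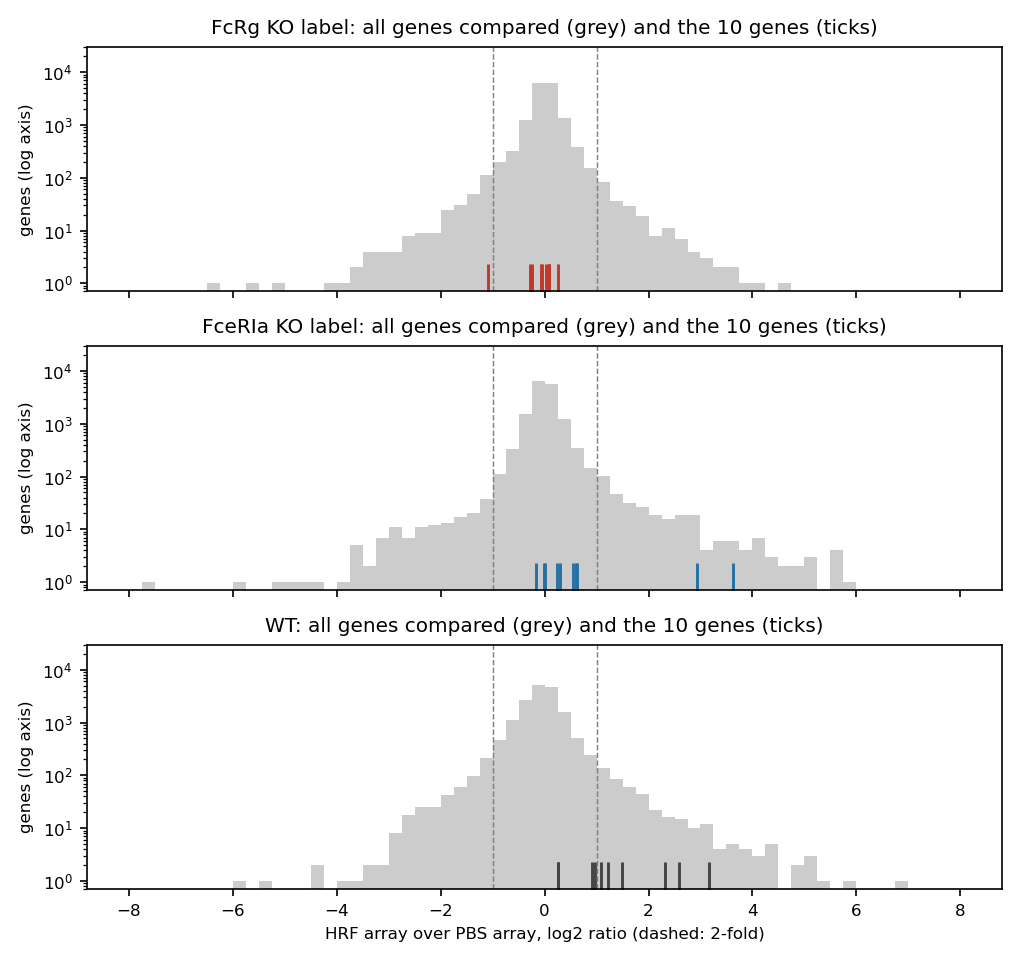
Number of genes (vertical log axis) by HRF over PBS log2 ratio (horizontal axis) under each genotype label, for all genes compared (grey bars) and the 10 genes (ticks). Under the FcRg KO label the ticks lie near 0 except that of Cxcl9 at -1.08, and in WT they lie right of 0, where the median of the 10 genes was 1.15.

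More of the 10 genes were at least 2-fold below WT on HRF arrays than on PBS arrays. With HRF, 7 of the 10 genes were at least 2-fold lower under the FcRg KO label than in WT, against 2.99% of all genes. With HRF, 6 of 10 were at least 2-fold lower under the FceRIa KO label than in WT, against 2.29%. With PBS, 1 of 10 was at least 2-fold lower under the FcRg KO label, Cxcl10 at log2 -1.36, against 2.96%. With PBS, 2 of 10 were at least 2-fold lower under the FceRIa KO label, Cxcl9 at -3.56 and Cxcl10 at -2.93, against 2.88%. These comparisons share the WT HRF array or the WT PBS array. The 6 GTPase genes lay -1.55 to -0.36 from WT under the FcRg KO label with HRF. With PBS they lay -0.32 to 0.04 from it, and the sign of Gbp2, Gbp3 and Igtp there turned when arrays were scaled on the median. All 6 GTPase genes were lowest on the PBS array labelled FceRIa KO, except that Irgm1 stood 0.031 above WT PBS there when arrays were scaled on the median.

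**Figure D4:**
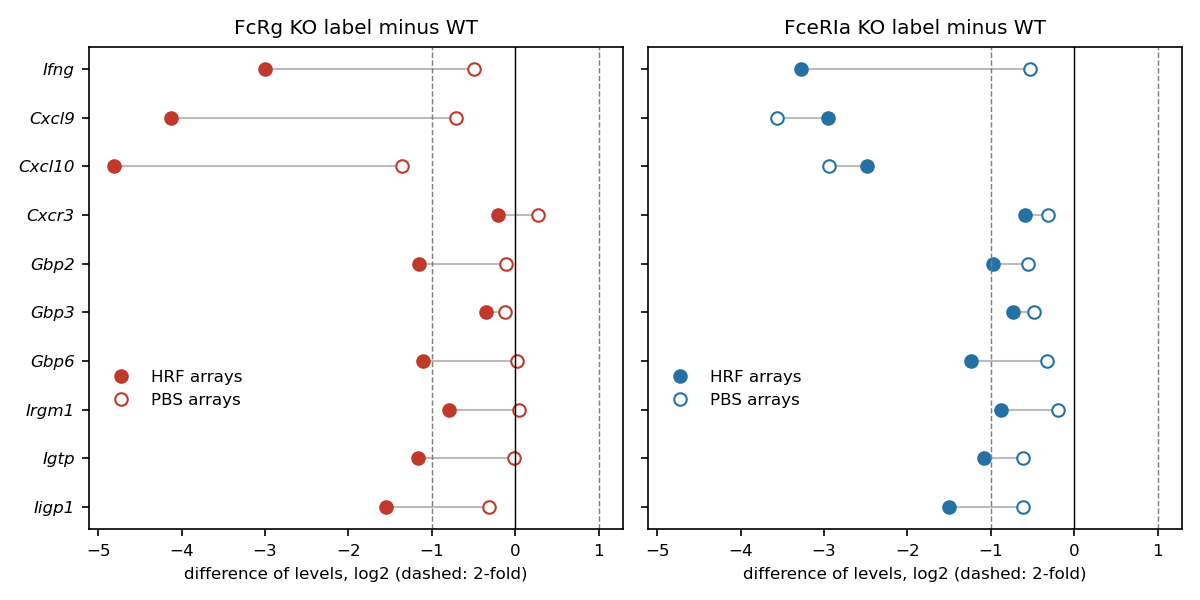
Difference in level between each labelled knockout and WT (horizontal axis, log2) for the 10 genes, with HRF arrays as filled points and PBS arrays as open points, 1 array per group. Dashed lines mark 2-fold. Ifng differed from WT by -2.999 and -3.28 on the HRF arrays labelled FcRg KO and FceRIa KO, and Cxcl9 and Cxcl10 lay below WT on the PBS array labelled FceRIa KO too.

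In a limma fit of all 6 arrays with genotype label and challenge as additive terms, 0 of 17605 genes passed for the average effect of HRF (0% called; 1552 at an unadjusted p under 0.05). The adjusted p of the 10 genes ran from 0.557 to 0.996. The largest average effect among them was that of Cxcl10, at log2 2.17 (SE 0.92, limma adjusted p = 0.557). The residual of this fit is the interaction of genotype and challenge, and the spread between mice is not in its p-values. For FcRg KO minus WT, 26 genes passed (0.148%), 25 of them lower, and 0 of the 10 were among them (adjusted p of 0.381 to 0.933). For FceRIa KO minus WT, 0 genes passed (2264 unadjusted), and the 10 genes had adjusted p-values of 0.221 to 0.465.

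The differences of the HRF response between labels were fitted with 1 added term and 1 residual degree of freedom. The residual of each such fit is the difference in response between the labels that the term groups together. The SE values there do not hold the spread between mice. No gene passed for the FcRg KO response minus that of the other labels (1027 unadjusted). In that fit Cxcl9 gave -3.72 (SE 0.36) and Cxcl10 gave -3.68 (SE 0.29), both with a limma adjusted p of 0.687. No gene passed for the response of both labelled knockouts minus WT either (1527 unadjusted). There Ifng gave -2.63 (SE 0.18, limma adjusted p = 0.569). For the FceRIa KO response minus the others 0 genes passed (608 unadjusted), with an adjusted p of 0.9999 for each of the 10.

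Of the 10 genes of the interferon gamma receptor and its signalling, 2 were at least 2-fold higher with HRF in WT, and 0 under either knockout label. They were Socs1, an inhibitor of the Jak kinases, at a log2 ratio of 2.22, and Ptpn2, a tyrosine phosphatase that restrains cytokine signalling, at 1.01. The receptor genes differed less in WT, Ifngr1 by 0.08 and Ifngr2 by 0.59, and Irf1 by 0.47. Median ratios of this list were -0.07, 0.08 and 0.53 for FcRg KO, FceRIa KO and WT.

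Among 11 measured genes that induce interferon gamma or act with T-bet, 1 was at least 2-fold higher with HRF in WT: Il12rb1, a chain of the interleukin 12 receptor, at 1.29. Their medians were 0.11, 0.00 and 0.17 for FcRg KO, FceRIa KO and WT. Under the knockout labels 0 were at least 2-fold higher.

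Further immunity-related GTPase genes followed the order of the 3 described above. Of 7 compared, 0 were at least 2-fold higher with HRF under the FcRg KO label, 1 under the FceRIa KO label and 6 in WT. The shares of all genes were 0.753%, 1.48% and 2.33%, and the medians of the 7 were 0.17, 0.59 and 1.07. Gm12250, at 0.31, 1.59 and 1.72, was the 1 called under the FceRIa KO label. F830016B08Rik had a ratio of 1.83 in WT, Gm4951 of 1.28 and Tgtp1 of 1.07. The rest of those called in WT stood at 1.01. They and Tgtp1 lie just above 2-fold. Of 6 further guanylate binding protein genes, 1 was at least 2-fold higher in WT, Gbp5, which acts in inflammasome assembly, at 0.21, 0.81 and 1.37 for FcRg KO, FceRIa KO and WT. Gbp9 reached 0.96 and Gbp10 0.66 in WT, and the medians were 0.06, -0.01 and 0.53.

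Of 21 other interferon gamma target genes, 0 were at least 2-fold higher with HRF under the FcRg KO label, 1 under the FceRIa KO label and 4 in WT. The 4 were Socs3, a feedback inhibitor of cytokine signalling, at 2.12, the ubiquitin-like gene Ubd at 2.004, the transcription factor gene Batf2 at 1.12 and Cd274, which encodes PD-L1, at 1.11. Ubd was also the gene called under the FceRIa KO label, at 1.46. Medians of the list were 0.12, 0.27 and 0.33 for FcRg KO, FceRIa KO and WT.

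Genes stimulated by type I interferon gave medians of 0.20, 0.09 and 0.31 over 19 genes compared. In WT 2 were at least 2-fold higher with HRF, the nucleic acid sensor gene Zbp1 at 1.48 and Oas3, which makes an activator of RNase L, at 1.03. The 4 genes with the largest ratios were Zbp1, Oas3, Oas2 and Isg15. For FcRg KO, FceRIa KO and WT, Zbp1 had 0.25, 0.88 and 1.48, Oas3 had 0.17, -0.28 and 1.03, and Oas2 had 0.30, 0.02 and 0.90. Isg15, a ubiquitin-like modifier, had 0.70, 0.25 and 0.69. Its ratio under the FcRg KO label was about that in WT, unlike those of Zbp1, Oas3 and Oas2, which were lower there than in WT. No test set this list against the 10 genes.

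**Figure D5:**
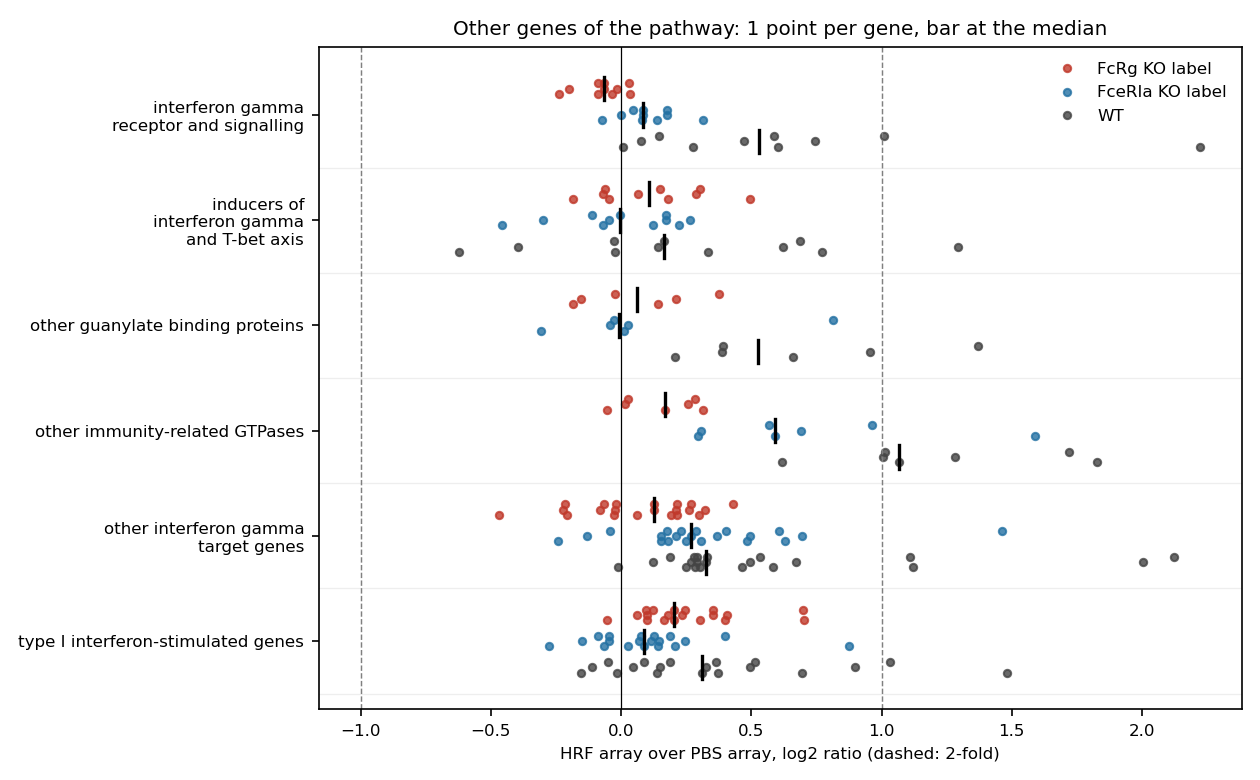
HRF over PBS log2 ratio (horizontal axis) of the other genes of the pathway, 1 point per gene and a black bar at the median, for 6 lists under the FcRg KO label, the FceRIa KO label and in WT. Dashed lines mark 2-fold. The immunity-related GTPase list had the highest median in WT, 1.07, of the 6 lists.

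The genes whose profile over the 6 arrays was most like the mean of Cxcl9 and Cxcl10 were Atf3 (Pearson r of 0.975), Hpx (0.974), Dmbt1 (0.972), Il6 (0.970) and Pdcd1 (0.964), among 715 genes that varied. Il6, the interleukin 6 gene, had log2 ratios of -0.28 under the FcRg KO label, 4.16 under the FceRIa KO label and 4.80 in WT. Most like the mean of the 6 GTPase genes were Ppp1r14d and Gpx2 (both 0.994), Btbd17 (0.993), Gm4951 and Icos (both 0.991). An r of at least 0.95 was reached by 9 genes for the chemokine profile and 53 for the GTPase profile. These correlations describe 6 arrays that share 1 slide, and 1 array, WT HRF, was the highest for 9 of the 10 genes.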

How the data were processed

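Whole-lung RNA on 6 Agilent arrays was grouped by the labels, 1 array per group. Per the file headers, Agilent Feature Extraction 10.7.3.1 read the spots of a design annotated on mm9. The deposited intensity used here, the processed signal, was corrected for background and for spatial trends on its own array, per the file headers, and was not scaled between arrays. A deposited value table holds the authors' log2 values. Its ratios correlated with those of the scanner files at r of 0.997 to 0.998, with slopes of 0.999 to 1.00. The median of a column was 0.1 for WT PBS and 0 elsewhere, and its centring is not given in the sources used here.

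Each array's processed signal was divided by its 75th percentile and put on a log2 scale. Control spots and outlier-flagged spots (179 to 244 per array) were dropped, and repeat spots were averaged per probe. Of 55681 probes, 26056 were named through RefSeq accessions with the table of GRCm38.p6, and 29625 are unnamed here. Where a gene has several probes, the one with the highest mean was used. Genes entered a comparison when either array showed them well above background. Where it was not on one of them, the 2-fold counts used the higher of its own level and the lowest level well above background there. This bound was not applied to the counts with the value table or without a filter. Tests were run with limma 3.58.1 in R 4.3.3 (Benjamini-Hochberg 0.05 over all genes), other steps with Python 3.11.15, numpy 2.4.6, pandas 2.3.3 and matplotlib 3.10.9. Only the term for the average HRF effect was run on simulated data, and the other terms were not. The genotype labels stand in for replicates, so p-values measure the spread between these arrays.

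The 10 genes and the lists were chosen with earlier results of these data known. Named are all 10 genes, up to 4 genes per pathway list with the largest ratios plus Ifngr1, Ifngr2 and Irf1, marker genes that define a list, and the 5 genes most alike per profile. Alternatives were normexp background correction (offset 50) with quantile normalization, the value table, median scaling, 2 other filters on dim probes, the mean of all probes, and leaving out each pair of arrays. Normexp used median intensities, since the files used here hold no mean intensities, which the plan had named. Protein sequences were not used here, and some genes that the rule names are not reported here.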

Additional observations from a re-analysis of the deposited data

Results flagged for a closer look

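These genes had HRF over PBS log2 ratios of opposite sign under a knockout label and in WT. With 1 array per group, each difference rests on 4 arrays, and the difference for a single pair of labels was not tested. The response under the FcRg KO label minus that in WT was -3.46 for Cxcl10, -3.41 for Cxcl9, -1.14 for Igtp and -1.05 for Gbp2. It was -2.51 for Ifng, -1.22 for Iigp1 and -1.13 for Gbp6, which kept their sign and so were not flagged under that label. Under that label the ratios of Cxcl10, Igtp and Gbp2 were close to 0 (-0.28, -0.05 and -0.08), so their sign carries little. For Cxcr3 the same difference was -0.49, and it was -0.27 under the FceRIa KO label minus WT, with no ratio of Cxcr3 reaching 2-fold. For Ifng the response under the FceRIa KO label minus that in WT was -2.75, with ratios of -0.16 and 2.58.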

How the results depend on the processing

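No replicate block could be fitted, since each group has 1 array. The additive limma fit already sets the HRF and PBS arrays of a label against each other. A ratio or median, which has no replicates, was taken as unmoved when it changed by less than 1.5-fold. Among the 10 genes, 2 ratios moved, both with normexp: Cxcl9 to 2.13 for HRF over PBS under the FceRIa KO label, and to -2.70 for FceRIa KO minus WT on PBS arrays. The count at least 2-fold lower with HRF under the FcRg KO label became 0 with normexp and with the mean of probes. The count at least 2-fold higher in WT ran from 5 to 8 over the settings. The number of the 10 genes past the limma threshold was 0 under each setting run. The average HRF effect of Cxcr3, near 0, turned to 0.033 with the value table and 0.074 with median scaling, and ran from -0.13 to 0.12 without 1 pair of arrays. That of Ifng ran from -0.043, without the WT pair, to 1.33, without the FceRIa KO pair, against 0.83 with all arrays. The cause of these moves was not tested.

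Counts over all genes depended more on the setting. Those with the value table and without a filter also lack the bound on dim genes that the main counts carry. The part of the bound in these differences was not tested. With normexp they became 25 higher and 79 lower for HRF over PBS under the FcRg KO label, against 125 and 195, and 114 higher under the FceRIa KO label, against 242. With the value table they were 226 and 299 under the FcRg KO label, and without a filter 483, 508 and, under the FceRIa KO label, 587. The mean of probes gave 192 higher under the FcRg KO label, and median scaling gave 617 higher in WT, against 406. For FcRg KO under WT, the counts on PBS arrays were 82 with normexp, 1075 with the value table, 273 with median scaling, 1660 without a filter, 291 with the stricter filter and 1041 with the mean of probes, against 514. For FceRIa KO under WT on PBS arrays, they were 40, 1216, 285, 1833, 215 and 1224 in the same settings, against 501. On HRF arrays, FcRg KO under WT gave 295 with normexp, 789 with the value table and 1164 without a filter, against 505. FceRIa KO under WT gave 169, 815 and 1269 there and 789 with the mean of probes, against 386. In limma, FcRg KO minus WT called 43 genes with normexp, 11 with the value table and 16 without a filter, against 26. FceRIa KO minus WT called 2 with normexp and 25 with median scaling, and the FceRIa KO response minus the others called 126 with median scaling, against 0 in each case. Without replicates, signal over background limits dim genes, and all 10 genes were above it.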
